A study of Mus musculus with 24 samples.

Results

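The comparison of whole liver from IkkB KO mice with whole liver from WT mice is described here across all genes that could be tested. IkkB, encoded by Ikbkb, is the catalytic kinase of the IKK complex. It marks IkB inhibitors for degradation, which frees Rel family factors to enter the nucleus and start NF-kB transcription. In liver this pathway is known for acute phase and chemokine genes and for the survival of hepatocytes under inflammatory signals. Members were the genes with a completed test by the authors' program and a level of 0.1 or more in WT or IkkB KO, which gave 12484 of the 24319 genes listed. The other genes were too low to be tested (11801) or too abundant for the program (34), and Alb, which encodes serum albumin, was among the latter and listed at 0.

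The series holds 24 polyA RNA libraries in 8 groups of 3, from whole liver or isolated hepatocytes of 4 genotypes, all from male mice aged 2 months on a C57/BL6 strain. The comparison used 6 of them, 3 labelled Alb-Cre+;IkkBf/f and 3 labelled Wild type. The series title places the study in the question of how loss of Ras-Erk and NF-kB signalling bears on the circadian clock and liver cancer. Alb-Cre expresses Cre recombinase from the albumin promoter, so the floxed allele is recombined in hepatocytes and other cells of that lineage and not in blood-derived, endothelial or stellate cells. The controls are labelled Wild type with neither Cre nor a floxed allele named, so effects of the transgene or of flanking sequence cannot be told apart from those of the deletion. A further 3 comparisons with the same deletion, Double KO (Alb-Cre+;IkkBf/f;Shp2f/f) against Shp2 KO (Alb-Cre+;Shp2f/f) in liver and both pairs in isolated hepatocytes, share no library with it and are set beside it.

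Each gene has 1 deposited value per genotype, pooled over the 3 libraries, in a unit that the table does not name. The library depths are unknown and no spread between replicates can be shown. Replicate error enters only as the authors' program estimated it, through the q-value (the adjusted p-value) in the authors' deposited table. "Rose" and "fell" are used for genes with q under 0.05 there, and differences are log2((IkkB KO + 1)/(WT + 1)), which understates the change of low genes. In bulk tissue, fewer cells of a type and less RNA per cell cannot be told apart. The labelled tissue was checked against hepatocyte markers: Ttr was 9726 in WT and 10049 in IkkB KO, Apoc3 was 7858 and 9714, and 0 of 12 tested markers passed. The summed level of these 12 was 34503 and 36352, and 5 further markers were too abundant to be tested. Xist, the transcript of the inactive X chromosome, was 0.00933 and 0.0083, and the Y-linked Eif2s3y was 37.7 and 37.1, as in males of both genotypes.

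Ikbkb fell from 15.7 in WT to 9.48 in IkkB KO liver, with q = 0.000955 in the authors' deposited table. The value is for the whole gene in all cells of the tissue, so it does not give the share of hepatocytes that recombined. Ptpn11, which encodes Shp2 and was not deleted here, was 12.5 and 10.1 (q = 0.366 in the authors' deposited table). Of the 12484 members, 567 passed (4.54%), 296 higher (2.37%) and 271 lower (2.17%). These shares are the background for the counts per list below. The median difference of all members was -0.01 and the middle 50% of them lay between -0.12 and 0.11. A difference of at least 1 in either direction was reached by 98 called genes, 46 higher and 52 lower. The share called was 4.28% among genes with a mean level of 0.1 to 1 and 4.7% at 100 or more, so calls were spread over the range of levels. Adjusting the same p-values within this comparison alone, instead of over all pairs of the table, left 379 genes. Among genes named here, the calls of Acss2, Asl, BC002163, C1qc, Ciart, Cldn7, Clock, Col3a1, Cyp2b9, Fgf21, Fgfr1, Gbp11, Got1, Gstp1, Orm2, Orm3, Per2, Psat1, Rrm2, S100a8, Serpina3c and Whsc1l1 did not pass when adjusted that way.

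**Figure D1:**
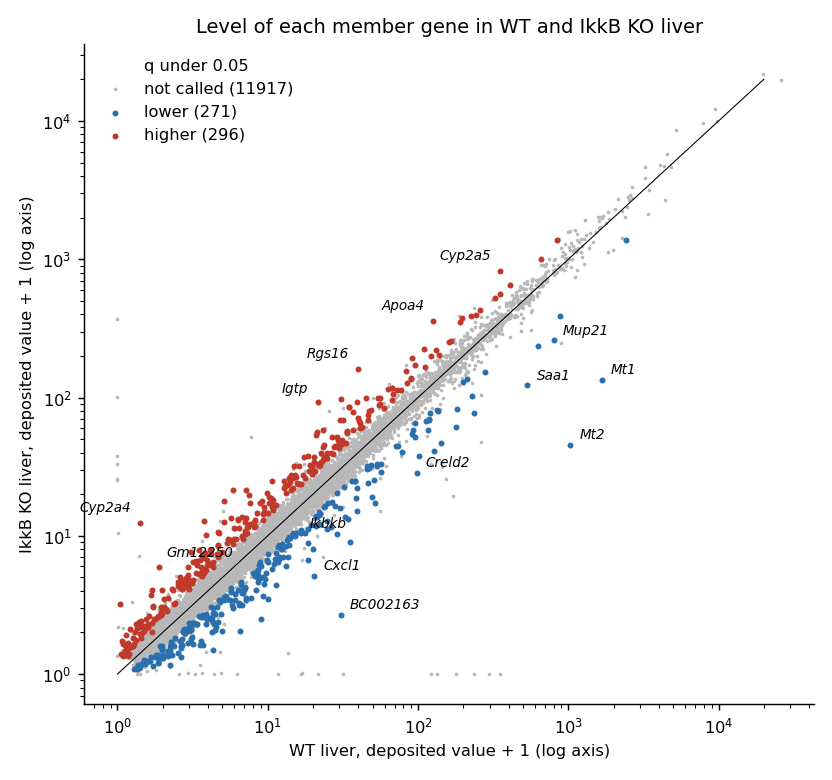
Deposited value plus 1 of each of the 12484 members in WT liver (x, log axis) and IkkB KO liver (y, log axis), with 1 point per gene and the line of equal values. Genes with q under 0.05 are red (296 higher) or blue (271 lower); Mt2 lies farthest below the line among the called genes, and grey points along the lower and left edges are listed at or near 0 in 1 genotype.

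Genes that interferon-gamma induces were higher in IkkB KO liver. Interferon-gamma induces immunity-related GTPases, which attack the vacuoles of intracellular parasites, and guanylate-binding proteins, which act with them. Of the 19 tested members of this GTPase list, 14 rose, 1 fell and 4 did not pass, with a median difference of 0.80. Igtp was 20.5 in WT and 92.2 in IkkB KO, a difference of 2.12. Gm12250, also named Irgb10, was 0.888 and 4.915, and Irgm2 was 16.4 and 36.2 (both rose). The guanylate-binding proteins Gbp3 (2.89 to 9.09) and Gbp10 (2.49 to 6.89) rose as well. Gbp11 went the other way and fell from 12.7 to 8.48, a call that was lost when p-values were adjusted within this comparison alone, where 12 of the 14 rises held. Ifi47, Gbp9 and Tgtp2 did not pass; the values of Tgtp2, near-identical to Tgtp1, differ between the pairs of the deposited table.

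The promoters of the 2 GTPase genes with the largest rises are shown because interferon response elements are known from promoters of this family. They are the 250 bases before the annotated start on the plus strand, from RefSeq on GRCm38.p6, with Igtp at chr11:58199306-58199555 and Gm12250 at chr11:58183593-58183842. Capitals mark the gamma-activated sequence TTCNNNGAA and the interferon response core GAAANNGAA, searched on both strands.
Igtp: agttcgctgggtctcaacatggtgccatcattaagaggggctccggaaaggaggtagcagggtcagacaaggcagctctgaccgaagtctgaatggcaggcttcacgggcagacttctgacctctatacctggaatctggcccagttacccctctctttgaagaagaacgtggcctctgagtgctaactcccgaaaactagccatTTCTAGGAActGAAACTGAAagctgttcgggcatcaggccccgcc
Gm12250: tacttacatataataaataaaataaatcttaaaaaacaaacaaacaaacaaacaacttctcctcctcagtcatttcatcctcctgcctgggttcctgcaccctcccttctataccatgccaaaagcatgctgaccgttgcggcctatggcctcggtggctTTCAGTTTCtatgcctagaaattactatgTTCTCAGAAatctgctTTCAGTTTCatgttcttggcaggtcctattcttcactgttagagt
Igtp holds 1 match to each motif and Gm12250 holds 1 gamma-activated sequence and 2 response cores. Of all 32851 promoter windows of this length, 7.02% hold the first motif and 7.13% the second. A promoter was found by symbol for 10 of the 19 tested GTPase genes, and 6 of these hold the first motif and 9 the second. Among the 9444 members with a promoter, the shares were 7.41% and 7.58%. A match describes the letters only, and nothing here measured binding.

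Other interferon-gamma targets moved the same way. Of 25 tested, 13 rose and 0 fell (without adjustment, 19 and 1 had p below 0.05 in the authors' deposited table), and the median was 0.50. Psmb9 and Psmb8, which replace the standard catalytic subunits in the immunoproteasome, rose from 33.7 to 84.8 and from 36.2 to 78.2. They are 2 of the 3 members that rose in the proteasome list, where 35 of 38 did not pass and the median was -0.02. Cxcl9, a chemokine for activated T cells, rose from 3.67 to 9.66, and Ubd, a ubiquitin-like modifier, from 0.672 to 2.73. Il18bp, a secreted inhibitor of interleukin-18, rose from 7.83 to 16.2. The proteasome activator genes Psme1 (138 and 189.9) and Psme2 (112 and 153.7) and the complement inhibitor Serping1 (585.5 and 718) did not pass. In the type I interferon list 30 of 32 tested members did not pass, and 21 of these lay above 0. The share called was 6.25%, against 4.54% of all members. Without adjustment, 7 were higher and 2 lower with p below 0.05 in the authors' deposited table. Zbp1, a sensor of Z-form nucleic acid, rose from 6.58 to 16.3 and Xaf1 fell from 7.62 to 3.62. That list had a median of 0.10, and its difference from the interferon-gamma lists was not tested.

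Antigen presentation genes were also higher in part. Tap1, Tap2 and Tapbp are listed both here and among the other interferon-gamma targets, so the counts share genes. Of 27 tested members, 14 rose and 0 fell (16 and 0 without adjustment), and the median was 0.65. The class II genes H2-Eb1, H2-Ab1 and H2-Aa, whose products present peptides to CD4+ T cells, rose; their values were 20.3 and 55.02, 33.5 and 84.3, and 44.3 and 98.1. Cd74, the invariant chain that guides class II molecules, rose from 90.65 to 193.2. H2-Q8, a class Ib gene, rose from 9.665 to 23.98. The class I light chain B2m (3257 and 4616) and the class I gene H2-K1 (996 and 1560) did not pass, nor did H2-Q10 (1792 and 1823), a class I gene known from liver. Reads of the H2-Q genes can be split among near-identical copies.

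**Figure D2:**
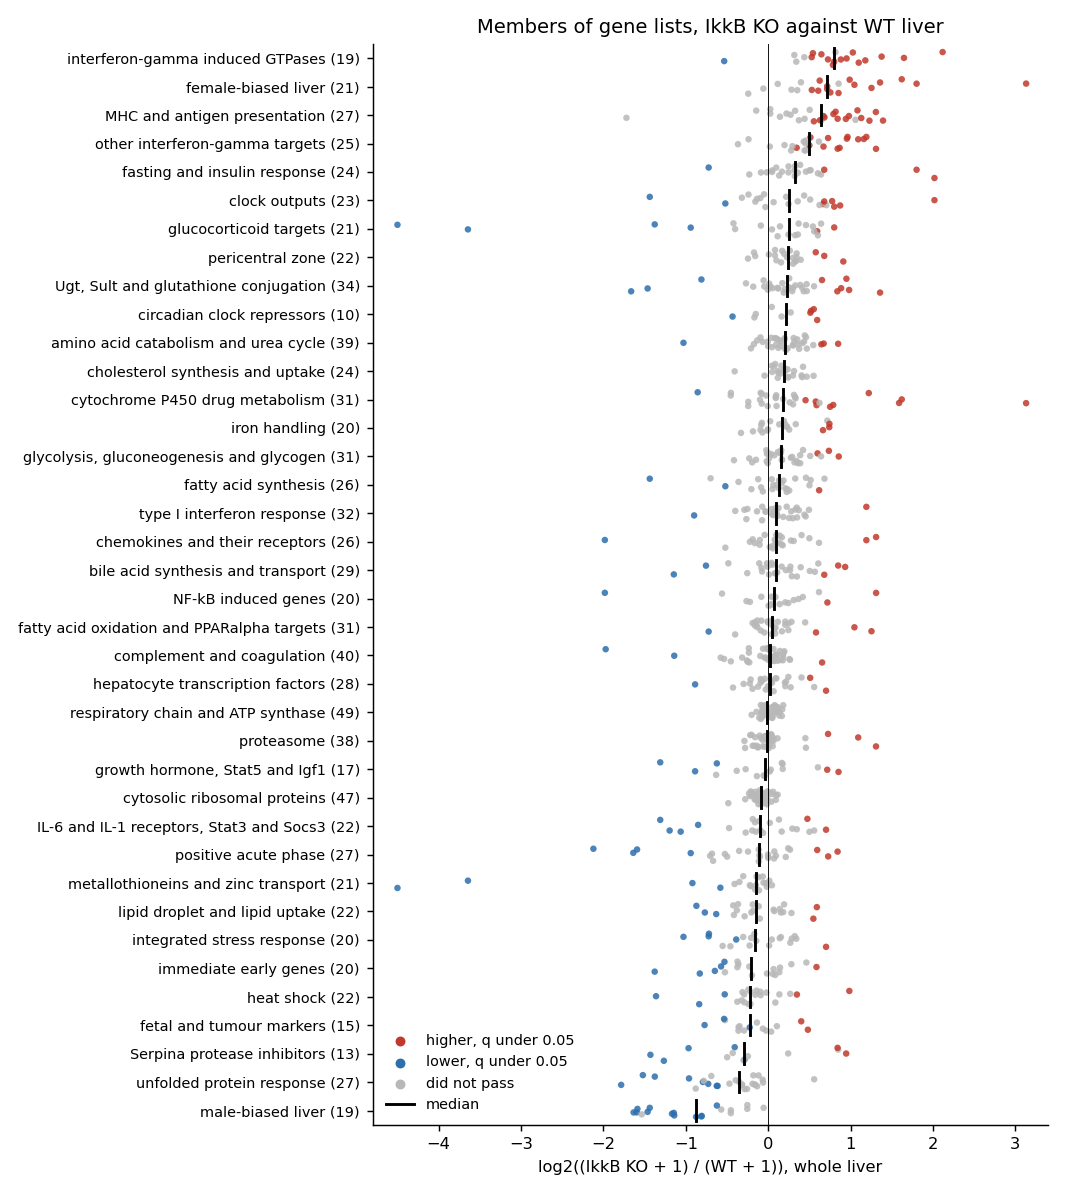
log2((IkkB KO + 1)/(WT + 1)) of each tested member of 38 gene lists in whole liver, with the number of tested members in brackets. The 38 of 47 lists were chosen by their number of called members, with a few others added, so lists with few calls are mostly not drawn. Red and blue points passed q under 0.05, grey ones did not, and black bars are medians, from 0.80 for interferon-gamma induced GTPases at the top to -0.88 for male-biased genes at the bottom.

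Markers of immune cells are given beside these groups, since class II genes and Cxcl9 are expressed by such cells. Of 20 tested macrophage and Kupffer cell markers, 3 rose and 17 did not pass, and their summed level was 360.4 in WT and 467.6 in IkkB KO. The 3 were Marco, a scavenger receptor, from 2.78 to 11.75, Mpeg1, a pore-forming protein of phagocytes, from 12.7 to 22.2, and C1qc, a complement subunit, from 40.3 to 59.1. The related subunits C1qa (42.0 and 56.8) and C1qb (42.4 and 57.6) did not pass, and neither did the Kupffer cell protein Cd5l (41.05 and 55.95). In the T and NK cell list, Ccl5 (4.115 to 11.7), Gzmb (0.388 to 1.36) and Cd8a (0.135 to 0.528) rose, and the other 14 of 17 tested members lay above 0 without passing. The summed level of the 17 was 12.7 and 27.2. Of the dendritic and B cell list, 4 of 11 rose, which are the 3 class II genes above and Cd74; the B cell receptor chain Cd79b was 1.79 in both genotypes and Clec9a, a dendritic cell receptor, was 1.66 and 1.703. No marker of these 3 lists was listed at 0 in both genotypes. The part of immune cell number in the interferon-gamma and antigen presentation groups was not tested.

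Within the pathway that was deleted, 2 of 25 transcripts (8%) were called, against 4.54% of all members. Among these 2 is Ikbkb, the deleted gene itself, so this share gives no result about the rest of the pathway. Of 25 tested IKK subunits, Rel factors and IkB inhibitors, Ikbkb fell and Nfkbia rose, from 23.9 to 38.9. Nfkbia encodes an IkB inhibitor and is itself a target of NF-kB. The partner kinase Chuk was 33.7 and 32.4, and the IkB family member Bcl3 was 27.8 and 27.0 (neither passed). Of 20 tested NF-kB induced genes, 2 rose and 1 fell (15%), with a median of 0.07. Cxcl1, a chemokine that draws neutrophils, fell from 19.4 to 4.16, while Vcam1, an adhesion molecule, rose from 2.625 to 4.96 along with Ccl5. The survival genes Bcl2l1 (19.5 and 19.9) and Cflar (12.35 and 12.39) did not pass, nor did Sod2 (53 and 54.5), a mitochondrial superoxide dismutase. None of 19 tested Toll-like receptor pathway genes passed in the authors' test, with 1 higher and 0 lower before adjustment; Myd88 was 13.02 and 10.8.

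Acute phase genes did not move as 1 group. Of 27 tested members, 3 rose and 4 fell, and the median was -0.11. Serum amyloid genes Saa1 and Saa2 fell by 2.12 and 1.59 on the log2 scale, Lcn2, an iron-binding lipocalin, from 23.7 to 11.9, and Steap4, a metalloreductase, from 126 to 39.8. The orosomucoid genes Orm2 (14.8 to 22.8) and Orm3 (1.94 to 3.87) rose, but not when p-values were adjusted within this comparison alone. The fibrinogen chains Fgb (4401 and 2699) and Fgg (3378 and 2105) and the heme carrier Hpx (3452 and 3189) did not pass. Acute phase genes are driven in large part by interleukin-6 through Stat3, and among 22 receptors and regulators of that route 2 rose and 4 fell. The interleukin-1 receptor gene Il1r1 fell from 25.4 to 10.5 and the feedback inhibitor Socs3 from 8.38 to 3.49. Pim1, a kinase induced by Stat factors, fell from 10.7 to 5.46. Cebpb, a factor that acts on acute phase promoters, rose from 54.65 to 89.5.

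Metallothionein transcripts were the largest falls among called genes. Metallothioneins bind zinc and copper and are induced by metals, glucocorticoids and inflammatory signals. Mt2 fell from 1032 to 44.7, a difference of -4.50, and Mt1 from 1675 to 133, a difference of -3.64. In the list of metallothioneins and zinc transporters 0 rose and 4 of 21 fell, and the others were Slc39a4, a zinc importer, from 29.3 to 15.02 and Slc30a10, a manganese exporter, from 7.015 to 4.36. The importer Slc39a14, which acute phase signals induce, was 68.2 and 55.1 (did not pass). The promoters of both genes are shown as the largest falls, with the metal response core TGCNCNC, searched on both strands, in capitals. Mt2 lies at chr8:94172368-94172617 and Mt1 at chr8:94178839-94179088, both on the plus strand in RefSeq on GRCm38.p6.
Mt2: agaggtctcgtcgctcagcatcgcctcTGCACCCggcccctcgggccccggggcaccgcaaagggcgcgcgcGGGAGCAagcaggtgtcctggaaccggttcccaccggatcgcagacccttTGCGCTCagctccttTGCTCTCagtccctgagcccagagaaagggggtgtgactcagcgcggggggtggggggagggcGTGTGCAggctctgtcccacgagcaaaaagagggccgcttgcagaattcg
Mt1: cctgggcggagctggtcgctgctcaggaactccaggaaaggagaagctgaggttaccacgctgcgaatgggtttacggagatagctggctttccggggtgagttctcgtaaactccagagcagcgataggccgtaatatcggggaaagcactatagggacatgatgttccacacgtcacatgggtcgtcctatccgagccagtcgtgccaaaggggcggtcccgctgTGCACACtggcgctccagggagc
In the 250 bases before the annotated start, Mt2 holds 5 matches and Mt1 holds 1, and 44.4% of all promoter windows hold at least 1. Bases after that start were not searched, so the counts depend on where it is annotated and do not cover the full promoters. Among the 9444 members with a promoter, the share was 56.7%, and among those called lower 57.4%.

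A few iron-regulatory genes were higher. Of 20 tested, 3 rose and 0 fell (15% called, against 4.54% of all members). The other 17 did not pass, and 9 of these lay above 0. Hamp2, a copy of the hepcidin gene, rose from 255.6 to 427.9. Id1 (9.76 to 17.0) and Atoh8 (8.38 to 13.9), both targets of the bone morphogenetic protein signal that sets hepcidin, rose too. Hamp itself, the hormone that blocks iron export, was 5188 and 8532 and did not pass (q = 0.0669 in the authors' deposited table). The ferritin chains Fth1 (1603 and 1878) and Ftl1 (3249 and 3876) did not pass.

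Sex-biased liver genes split by their bias. In rodents the timing of growth hormone pulses sets a male or a female programme of liver enzymes through Stat5. Of 19 tested male-biased genes, 12 fell and 0 rose, with a median of -0.88, and of 21 tested female-biased genes, 14 rose and 0 fell, with a median of 0.72. Among the former, Mup21, a urinary pheromone carrier, fell from 802.3 to 258, and the fatty acid hydroxylase genes Cyp4a12a (141 to 46.1) and Cyp4a12b (51.0 to 16.3) fell. Ugt2b38, a glucuronosyltransferase, fell from 17.5 to 5.73 and the elongase gene Elovl3 from 101 to 36.6. On the female-biased side, Cyp2a4, a steroid hydroxylase, rose from 0.416 to 11.4, the largest rise among called genes with a level of at least 1, and Cyp17a1, which makes androgen and glucocorticoid precursors, rose from 4.11 to 16.8. Gstt3 (19.8 to 52.3), a glutathione transferase, and Acot3 (0.695 to 3.04), an acyl-CoA thioesterase, rose too. Cyp2a5, of the same gene family as Cyp2a4, was 350.8 and 818.6, and how reads were assigned between them was not tested. The male-biased Cyp2d9 (1270 and 928), Nudt7 (1102 and 742) and Igfbp2 (452.5 and 435) did not pass. Mup and Cyp4a12 genes are near-identical copies, and 7 members of the male-biased list, most of them Mup genes, were too abundant to be tested. The summed level of the 19 tested male-biased genes was 8309 in WT and 4861 in IkkB KO.

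Genes of the growth hormone axis itself went both ways. Socs2, a Stat5 target that damps the receptor, fell from 18.9 to 7.01, and Onecut1, a liver transcription factor, fell from 9.62 to 4.74. Cux2, a repressor typical of female liver, rose from 0.0646 to 0.749, and Prlr, the prolactin receptor, from 14.3 to 26.6. Igf1, the main hormone made under growth hormone, was 227 and 232 and did not pass. Igfbp3, which carries Igf1 in blood, fell from 14.3 to 8.94, so 2 rose and 3 fell of 17 tested.

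Drug-metabolising enzymes were higher in part. Of 31 tested cytochrome P450 genes, 9 rose and 1 fell (5 and 1 adjusted within this comparison alone). Cyp2a5, which hydroxylates coumarin, rose from 350.8 to 818.6, Cyp2c38 from 6.18 to 20.6 and Cyp2c54 from 130.1 to 219.6. Cyp2c55 fell from 4.74 to 2.17. Cyp2e1 (4549 and 5724), which oxidises ethanol, and Cyp2f2 (1042 and 880) did not pass. Among conjugating enzymes, 6 rose and 3 fell of 34 tested: the sulfotransferases Sult5a1 (15.06 to 30.7) and Sult1a1 (190 to 351) and the transferase Gsta2 (11.9 to 23.9) rose. Ugt2b37 fell from 5.496 to 1.05. Gstp1 fell from 2429 to 1385, a call not kept under adjustment within this comparison alone. The called genes Cyp2a4, Cyp2b9, Gstt3, Gstp1 and Ugt2b38 are also in the sex-biased lists, so the counts share genes. Targets of Nrf2, the factor for oxidative stress, did not pass in 22 of 22 cases in the authors' test, also before adjustment (0 higher and 0 lower).

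Bile acid and steroid genes changed singly. Of 29 tested, 3 rose and 2 fell: Cyp7a1, which catalyses the committed step from cholesterol to bile acids, went from 29.97 to 48.6 and Akr1d1, a later step, from 38.6 to 70.3. Cyp7b1, of the alternative route, fell from 227.5 to 102. The canalicular export pump Abcb11 fell from 112 to 66.2, and the uptake carrier Slco1a4 rose from 4.99 to 10.4. The carrier of corticosteroids in blood, Serpina6, rose from 194 to 374. Of the 13 tested Serpina genes 2 rose and 5 fell, with Serpina4-ps1 from 629.8 to 233 and the adipokine Serpina12 from 31.8 to 12.6.

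Lipid and carbohydrate genes were mostly not called (4.54% of all members were called). None of 24 tested cholesterol genes passed in the authors' test, with 4 higher and 1 lower before adjustment, and 22 of the 24 lay above 0. In fatty acid synthesis 1 rose and 2 fell of 26 (11.5% called), among which Elovl3 fell and Acss2, which activates acetate, rose from 89.05 to 137. Scd1 (1839 and 1132) and Thrsp (868 and 1394) did not pass. The lipase inhibitor G0s2 fell from 135 to 78.9 and the fatty acid carrier Fabp5 from 93.9 to 50.9, while the lipoprotein receptor Vldlr rose from 0.48 to 1.23. Of PPARalpha targets, Cyp4a14 rose from 5.39 to 12.2 and Fgf21, a fasting hormone, fell from 3.12 to 1.496. Of that list 27 of 31 did not pass (12.9% called). Apoa4, a lipoprotein component, rose from 126 to 355, Mfsd2a, a transporter of lysophospholipids, from 29.5 to 96.7, and Pctp, a phosphatidylcholine carrier, from 22.4 to 57.4; these were among the 20 largest rises. In glycolysis and gluconeogenesis 3 rose and 0 fell of 31 (9.68% called), among them Pfkfb3, which makes the activator of phosphofructokinase, from 9.69 to 15.2. Of 39 tested amino acid enzymes 10.3% were called. Of these 3 rose, Prodh (94.3 to 170.6), Got1 (159 to 249.6) and Asl (350.6 to 559.6), while Asns, which makes asparagine, fell from 3.501 to 1.21.

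Chaperones of the endoplasmic reticulum were lower. When unfolded proteins build up there, Xbp1 and Atf6 turn on a set of chaperones and degradation factors. Of 27 tested genes, 0 rose and 8 fell, 13 had lower values with p below 0.05 before adjustment, and the median was -0.35. Creld2 fell by 1.78 on the log2 scale, Derl3, part of the degradation channel, from 9.05 to 2.502 and Sdf2l1 from 48.5 to 18.1. Hyou1 (77.75 to 39.5) and Pdia4 (118 to 67.5) fell as well. The main chaperone Hspa5 was 560.8 and 304.4, with q = 0.054 in the authors' deposited table, and Hsp90b1 was 486 and 301 (did not pass). In the integrated stress response 1 rose and 4 fell of 20, including Mthfd2, a mitochondrial folate enzyme, from 1.64 to 0.604, and Psat1, of serine synthesis, from 0.627 to 0.243. Atf4, its central factor, was 107 and 91.6 (did not pass). Cytosolic heat shock genes were mixed: Hspb1 fell from 33.1 to 12.3 and Hsp90aa1 from 38.4 to 21.05, whereas Hspa1b rose from 2.804 to 6.52.

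Part of the clock repressors rose in this comparison. The clock is a loop in which Clock and Arntl drive Per, Cry and Ciart genes, whose products then block them. Of 10 tested repressors, 4 rose and 1 fell (2 and 0 adjusted within this comparison alone). Per1, Per2, Per3 and Ciart rose by 0.59, 0.51, 0.52 and 0.55 on the log2 scale. Nr1d1 (59.3 and 52.7) and Bhlhe40 (76.6 and 68.9) did not pass. Among activators, Clock fell from 2.004 to 1.33. Dbp, an output factor, was 115 and 146 (did not pass). Of 23 tested outputs, 6 rose and 2 fell, with Rgs16, a brake on G protein signals, from 38.9 to 160.5 and Ccrn4l, a deadenylase also named Nocturnin, from 19.2 to 35.97. The labels give no time of collection, so a change of level and a shift of phase cannot be told apart. The promoters of Per1 (chr11:69098699-69098948, plus strand) and Ciart (chr3:95882229-95882478, minus strand), the largest rises among repressors, follow for their clock elements, with the E-box CACGTG and the D-box TTATGNAA in capitals.
Per1: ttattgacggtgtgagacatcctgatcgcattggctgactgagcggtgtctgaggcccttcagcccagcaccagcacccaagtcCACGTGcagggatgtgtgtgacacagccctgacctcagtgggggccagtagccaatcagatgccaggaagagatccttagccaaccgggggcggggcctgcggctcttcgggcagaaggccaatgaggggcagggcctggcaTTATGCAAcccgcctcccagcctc
Ciart: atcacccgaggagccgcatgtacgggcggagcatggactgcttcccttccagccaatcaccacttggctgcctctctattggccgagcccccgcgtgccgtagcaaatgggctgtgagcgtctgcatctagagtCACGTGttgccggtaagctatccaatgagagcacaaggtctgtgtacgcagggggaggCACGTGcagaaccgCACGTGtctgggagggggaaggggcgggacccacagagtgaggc
Per1 holds 1 of each and Ciart holds 3 E-boxes; a second Per1 promoter in RefSeq holds neither. Of all promoter windows, 6.02% hold the E-box and 3.07% the D-box. Among the 9444 members with a promoter, the shares were 9.95% and 2.48%.

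Immediate early genes were lower in part, with 1 rise and 5 falls among 20 tested. Dusp1, a phosphatase that turns off stress kinases, fell from 38.4 to 14.2, Nr4a1 from 5.09 to 2.43 and Junb from 21.03 to 13.1. In the replication and mitosis list 2 of 22 were called (9.09%, against 4.54% of all members). Ccne1, a cyclin of G1, fell from 2.93 to 1.49 and Rrm2, of nucleotide synthesis, rose from 3.67 to 5.99. None of 14 Ras-Erk feedback genes passed in the authors' test, with 0 higher and 1 lower before adjustment. Bmf, which promotes cell death, rose from 2.37 to 5.14, and 28 of 29 tested cell death genes did not pass (3.45% called). Subunits of the respiratory chain (49 tested) and of the cytosolic ribosome (47 tested) had 0 called in the authors' test and 0 before adjustment, with medians of -0.01 and -0.09.

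Bile duct markers were lower in this comparison. The albumin promoter is active in the common precursor of hepatocytes and duct cells. Of 13 tested markers, 0 rose and 6 fell (4 adjusted within this comparison alone), and their summed level was 355.6 and 303.1, most of it from keratins that hepatocytes share. Spp1, osteopontin, fell from 52.5 to 31.1, Krt19, a duct keratin, from 1.68 to 0.616, Sox9, a progenitor factor, from 1.18 to 0.4596 and Cldn7, a tight junction protein, from 0.951 to 0.337. The list also holds Onecut1, given above as a liver transcription factor, which fell. Krt8 (109 and 103.5) and Krt18 (168 and 152) did not pass. Of stellate cell markers, Acta2, smooth muscle actin, fell from 5.803 to 2.84 and Col3a1 from 9.1 to 6.37, and 18 of 20 did not pass. None of 18 endothelial markers passed in the authors' test (0 higher and 1 lower before adjustment). In the neutrophil list S100a8 fell from 5.703 to 2.17 along with Lcn2, and S100a9 was 5.32 and 4.07 (did not pass).

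The same deletion on the Shp2 KO background called 1388 of 12878 genes (10.8%), 1023 higher (7.94%) and 365 lower (2.83%). Of the 567 genes called in IkkB KO against WT, 133 were called in the same direction there, 23.5% of the 567 and 9.58% of the 1388, with 74 higher and 59 lower in both. A further 85, 15% of the 567, were called in the opposite direction. These include Saa2, which was 504 in Shp2 KO and 1280 in Double KO, and Saa1, which was 636 and 1474. Mt2 was 99.6 and 220.1 there, Rgs16 was 2.95 and 0.885, and Lcn2 was 32.6 and 130.8, each against its direction in IkkB KO against WT. Of 21 tested male-biased genes 13 fell and 0 rose, and of 26 female-biased genes 7 rose and 2 fell. Of 10 tested clock repressors 0 rose and 1 fell. Of the interferon-gamma GTPase list, 7 rose and 3 fell of 19. Igtp was 23.4 and 26.8 and Psmb9 was 25.5 and 27.9 (neither passed). Other interferon-gamma targets had 6 higher and 0 lower of 25, and the type I interferon list 13 higher and 1 lower of 32. Macrophage markers rose in 17 of 21 cases in this comparison. Of 13 bile duct markers 4 rose and 1 fell, and Spp1 rose from 41.9 to 137.3. In the neutrophil list 8 of 9 rose and 0 fell. The difference between the backgrounds was not tested, since the tables hold no values per library.

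In isolated hepatocytes the deletion called 1142 of 12135 genes (9.41%), 922 higher (7.6%) and 220 lower (1.81%). Of the 567 liver genes, 154 were called in the same direction, 27.2% of the 567 and 13.5% of the 1142, and 28, or 4.94% of the 567, in the opposite one. The interferon-gamma GTPase list had 15 higher and 1 lower of 20 there, with Igtp at 40.4 and 88.9 and Gm12250 at 1.665 and 4.875 (both rose). The type I interferon list had 3 higher and 3 lower of 31. Mt2 was 463.5 and 16.8 and Saa1 was 1998 and 126.6 (both fell). The endoplasmic reticulum list did not follow: 1 rose and 1 fell of 27, and Creld2 was 41.02 and 47.5. Bile duct markers had 1 higher and 1 lower of 8, and neutrophil markers 1 higher and 1 lower of 5. Male-biased genes had 1 higher and 8 lower of 21, and female-biased genes 5 higher and 4 lower of 21. Clock repressors had 1 higher and 0 lower of 10. There 17 of 18 tested macrophage markers, 17 of 18 stellate cell markers and 12 of 17 endothelial markers rose, so markers of other cell types moved with the genotype in these preparations. Their part in the shared calls was not tested.

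In isolated hepatocytes on the Shp2 KO background, Double KO against Shp2 KO, 828 of 12250 genes were called (6.76%), 422 higher (3.44%) and 406 lower (3.31%), and Ikbkb fell from 15.1 to 5.285. Here more of the 567 liver genes went against their direction in IkkB KO against WT liver than with it: 64 were called the same way, 11.3% of the 567 and 7.73% of the 828, and 136, or 24%, the opposite way. Sex-biased genes were called mostly in the other direction, with 4 of 22 tested male-biased genes higher and 1 lower, and 0 of 27 female-biased genes higher and 16 lower. Interferon-gamma GTPases were called higher in 8 of 19 cases and lower in 1, with Igtp at 17.4 and 29.07 and Gm12250 at 0.342 and 0.963 (both rose). The type I interferon list had 2 higher and 1 lower of 32. Of 27 antigen presentation genes 1 rose and 0 fell. Of 10 clock repressors 0 rose and 8 fell, with a median of -0.76. Mt2 fell from 952.2 to 26.06 and Saa1 from 3003 to 397. Of 18 macrophage markers 3 rose and 1 fell in this comparison. Bile duct markers had 1 higher and 0 lower of 12, and neutrophil markers 0 higher and 2 lower of 5. The differences from the other comparisons were not tested.

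**Figure D3:**
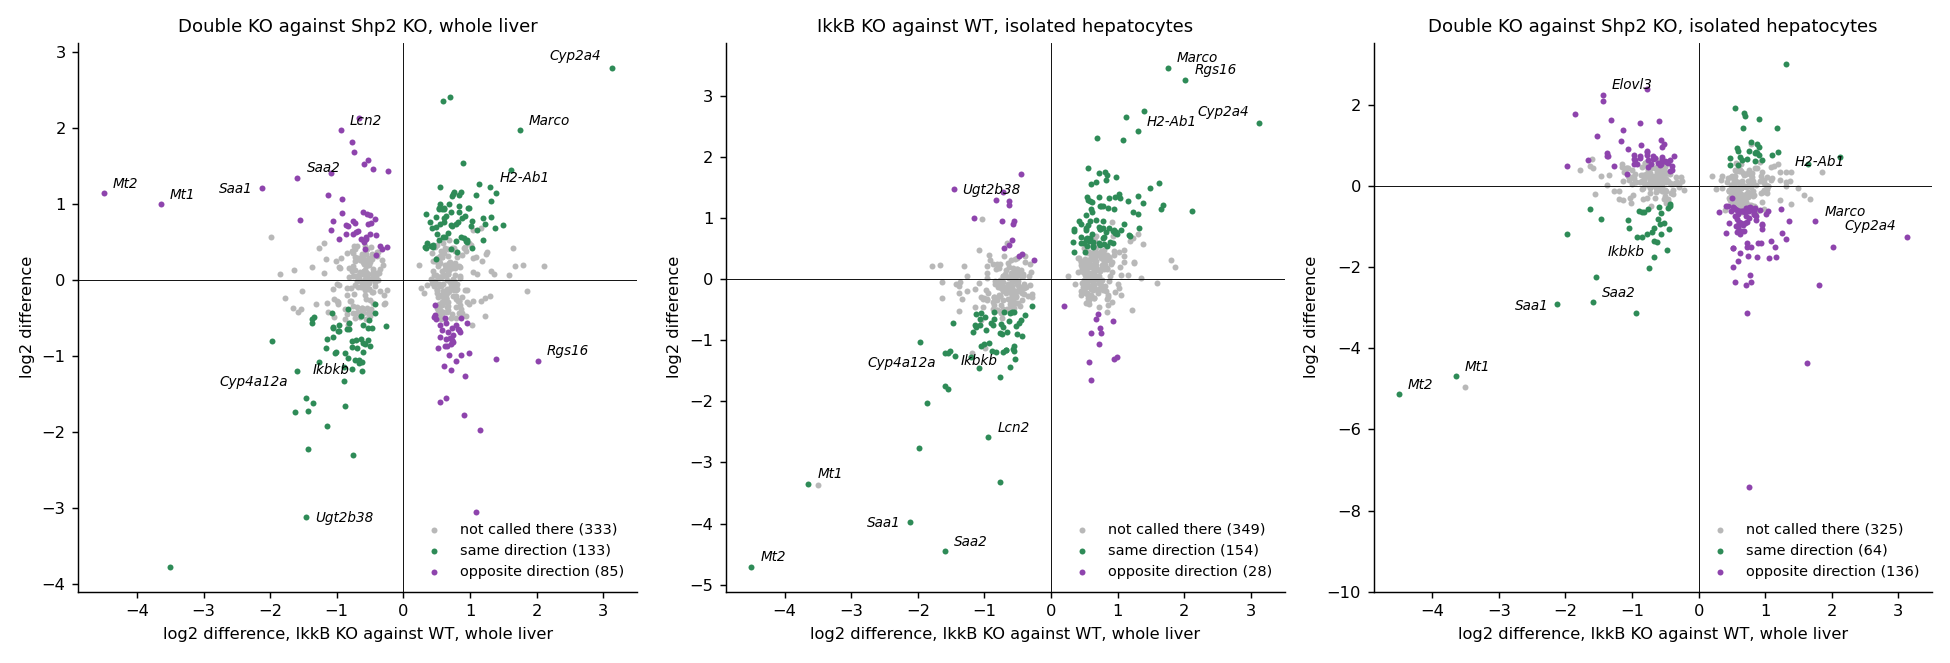
The genes called in IkkB KO against WT liver, with their log2 difference there (x) against their log2 difference in Double KO against Shp2 KO liver (left, y), in IkkB KO against WT isolated hepatocytes (middle, y) and in Double KO against Shp2 KO hepatocytes (right, y). Green points were called in the same direction (133, 154 and 64), purple ones in the opposite direction (85, 28 and 136), and Mt1, Mt2 and Saa1 are purple on the left and green in the other 2 panels.

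In these 3 comparisons without the Double KO hepatocytes, 67 genes were called in the same direction, 11.8% of the 567, with 49 higher and 18 lower. The rises included Cyp2a4, Marco, Cyp2b9 and the class II genes. Cyp2a4 was 0.416 in WT and 11.4 in IkkB KO liver, 7.603 in Shp2 KO and 58.7 in Double KO liver, and 1.24 and 12.2 in hepatocytes. H2-Ab1 was 32.6 in Shp2 KO and 77.2 in Double KO liver, and 15.4 in WT and 86.7 in IkkB KO hepatocytes. Il18bp and Serpina3g, a serine protease inhibitor, also rose in these 3. Among the 18 falls, Elovl3 was 165 in Shp2 KO and 49.03 in Double KO liver, and 139 in WT and 57.7 in IkkB KO hepatocytes. Cyp4a12a, Onecut1, Selenbp2 (874 to 389 in liver), C4a (34.5 to 8.06), G0s2, Hsd3b5 (278.1 to 151) and Xaf1 fell in these 3, as did Ikbkb. In Double KO against Shp2 KO hepatocytes, 10 of the 67 were called in the same direction, 13 in the opposite one, and 44 were not called or not tested. Cyp2a4 was 39.3 and 15.7 there, Marco 14.5 and 7.43 and Cyp2b9 53.9 and 1.67 (all fell). Elovl3 was 36.1 and 175.1 there and Onecut1 5.399 and 9.3 (both rose). H2-Ab1, at 14.5 and 18.8, did not pass. Macrophage markers moved with the knockout in each of the 3 comparisons, in 3 of 20, 17 of 21 and 17 of 18 cases, and their part in the shared rises was not tested. At q under 0.01 in every comparison 35 of the 67 were left.

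**Figure D4:**
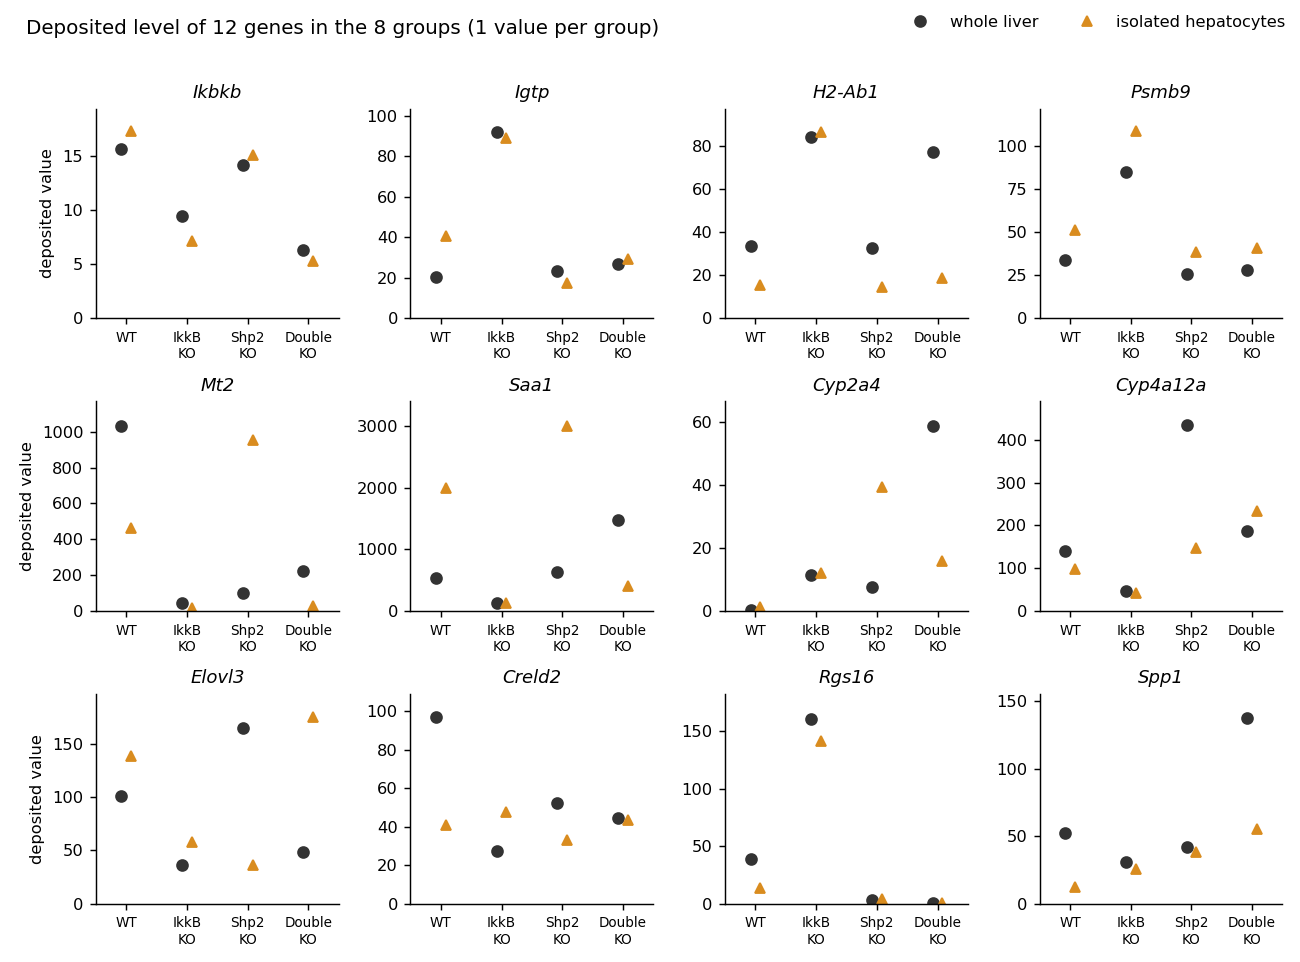
Deposited value (y, linear, from 0) of 12 genes in the 4 genotypes (x) of whole liver (circles) and isolated hepatocytes (triangles), with 1 value per group and no error, since replicates were pooled. Igtp stands highest in IkkB KO in both tissues, while H2-Ab1 in liver is also high in Double KO (77.2), and the tables for liver and hepatocytes were made separately.

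Genes that moved in opposite directions in liver and in hepatocytes included several drug-metabolising enzymes. Ugt2b38 fell from 17.5 to 5.73 in liver and rose from 4.225 to 13.5 in hepatocytes. Cyp2c40 rose from 2.31 to 5.57 in liver and fell from 3.88 to 1.01 in hepatocytes, and Cyp2c54 rose from 130.1 to 219.6 and fell from 104 to 56.2. Cyp26a1, which degrades retinoic acid, rose from 3.1 to 6.92 and fell from 4.39 to 1.18. Spp1 and Fgf21 fell in liver and rose in hepatocytes, from 12.7 to 25.4 and from 0.777 to 3.76. These differences between tissues were not tested.

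Called genes were also looked at by their order along the chromosomes, in RefSeq on GRCm38.p6, in which 12422 members had a place. Of the 50 members nearest to Ikbkb in that order, 25 on each side, 3 were called, or 6% against 4.54% of all members: 1810011O10Rik rose from 17.7 to 36.9, and Fgfr1, a fibroblast growth factor receptor, fell from 1.94 to 1.165 and Whsc1l1 from 19.9 to 12.7. Runs of at least 3 neighbouring members called in the same direction numbered 12 and held 46 genes; the search for runs was chosen after the values were seen. They include Gm12250, Igtp and Irgm2 (higher), a run of 5 guanylate-binding protein genes (Gbp5, Gbp7, Gbp3, Gbp2b and Gbp2, higher), the class II genes H2-Ab1, H2-Aa and H2-Eb1 (higher), and H2-DMb1, Psmb9, Tap1 and Psmb8 (higher). On the lower side they are Mup4, Mup6, Mup5 and Mup21 and a run of 5 genes from Serpina9 to Serpina3c. Neighbours in such families share sequence, so reads can be assigned to either copy.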

How the data were processed

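PolyA RNA was sequenced in 24 libraries, 3 per genotype and tissue. FastQC, Cuffdiff and the mm9 build are named in the submitters' processing notes; aligner, annotation, versions and strand handling were not given in the sources used here. The authors deposited 1 table per tissue with 1 expression value for each gene in each genotype and no named unit. The deposited log2 column holds log2 ratios of these values, and 1 member (Tgtp2) differed by more than 0.001 from the ratio of its values. The authors' test score was not used, since it does not correspond to the p-value by a normal score. P-values and q-values were deposited by the authors from Cuffdiff, and liver q-values equal a Benjamini-Hochberg adjustment over all pairs of that table. Among called genes 192 share the smallest p-value, 5e-05. There are 0 columns per library, so the p-values rest on Cuffdiff's own estimate of spread, which cannot be checked here. No SD, depth or test across samples could be computed here, and whether libraries stand apart cannot be seen.

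Differences used log2(value + 1), a minimum value of 0.1 and q under 0.05, in Python 3.11.15 with pandas 2.3.3 and numpy 2.4.6. Gene lists (47) and marker lists (10) came from textbook knowledge. The comparison, lists and rules were chosen with earlier results of these data known, so no list is independent evidence. Named genes were Ikbkb and Ptpn11; per list, up to 5 called per direction (smallest q first, then largest difference) and the 3 highest that did not pass; the 20 largest rises and falls at a level of at least 1; 10 per direction called the same way in both liver comparisons and in IkkB KO against WT hepatocytes; 10 opposite in liver and hepatocytes; 10 near-absent genes; and called neighbours of Ikbkb. Other genes were chosen after their values were seen. Coordinates were expected in the tables; gene order in RefSeq was used instead. The counting and motif search were tested on simulated data. Some items are not reported here.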

Additional observations from a re-analysis of the deposited data

How the results depend on the processing

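No paired analysis was possible because the tables hold 1 value per gene and genotype and no column per replicate; for the same reason no replicate could be left out. With q under 0.01 the called genes numbered 325 for IkkB KO against WT liver, 814 for Double KO against Shp2 KO liver, 701 for IkkB KO against WT hepatocytes and 462 for Double KO against Shp2 KO hepatocytes. With q under 0.05 and a log2 difference of at least 1 they numbered 98, 178, 238 and 181, in that order. The genes called the same way in 3 comparisons (both liver pairs and IkkB KO against WT hepatocytes) numbered 35 with q under 0.01 and 44 with adjustment within each comparison, and all of these are among the 67; the cause is fewer calls in each comparison. Adjustment within the comparison left 470 in Double KO against Shp2 KO hepatocytes, whose alternatives were chosen after seeing the data, and kept the other 3 totals within 1.5 times, as did a minimum of 1 and no minimum for all 4. It moved 26 counts per gene list by more and 88 not, such as rises of clock repressors (4 to 2), acute phase genes (3 to 1), amino acid enzymes (3 to 1) and P450 genes (9 to 5), and falls of Serpina genes (5 to 3). Of 174 called genes that the naming rule allows, 39 did not pass with adjustment within the comparison and 46 did not with q under 0.01. No called gene that the rule allows changed direction with a pseudocount of 0.1 or with centring on the median of all members; centring turned the sign of 2 that did not pass and lie near 0. The pooled values limit what can be said: a rise in 1 library cannot be told apart from a rise in all 3, and depth is unknown.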

Other observations

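Some transcripts were near 0 in 1 genotype and at 1 or more in the other. These were 28 members, most of them microRNA and small nucleolar RNA genes such as Mir3074-1, Snord33 and Mir343. Cyp2b9 was the only one of the 28 that passed. Ndufs5, a subunit of respiratory complex I, was 15.9 in WT and 0.013 in IkkB KO liver, and 6.56 and 0.0787 in hepatocytes. Neither difference passed (q = 0.628 and 0.521 in the authors' deposited tables), and assignment of its reads to similar sequences elsewhere was not tested. Trim12a, an immune ubiquitin ligase gene, was 2.66 and 0.0216 in liver and 4.04 and 0.00908 in hepatocytes, while Shp2 KO and Double KO liver had 4.57 and 3.39. Moxd1, a monooxygenase-like gene, was 1.94 in WT liver and between 0.01245 and 0.0912 in the 3 knockout genotypes. BC002163 fell from 29.5 in WT to 1.69 in IkkB KO liver, a call lost under adjustment within this comparison alone, and stood at 29.01 with Shp2 KO and at 1.18 with Double KO.

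Gh, the pituitary growth hormone gene, was 0.0135 in WT liver and 9.55 in IkkB KO liver, with q = 0.45 in the authors' deposited table, and 2.18 in Shp2 KO and 1.3 in Double KO liver. In hepatocytes Gh was listed at 0 in WT, with 1.53 for IkkB KO, 1.31 for Shp2 KO and 0.176 for Double KO, so it was lowest in WT in both tissues. WT is the only genotype labelled without Alb-Cre, and IkkB was not deleted in Shp2 KO. Effects of the transgene and of the deletions on Gh cannot be told apart. The authors' deposited table calls Gh higher in IkkB KO than in WT hepatocytes, with q = 0.00048.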
